A study of Mus musculus with 8 samples.

Results

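The transcripts of 10 mouse genes whose proteins write, maintain or remove DNA methylation were measured in embryonic stem cells labelled as Ssrp1 knockout or Usp7 knockdown and in their controls. The 10 genes were chosen by name for their function, with earlier results of these data known, out of 54232 genes counted. Dnmt1, Uhrf1 and Hells act in maintenance, and Dnmt3a, Dnmt3b and Dnmt3l in de novo methylation. Tet1, Tet2, Tet3 and Tdg act in demethylation. The RNA came from the mouse embryonic stem cell line E14, whose strain the labels give as 12910la, and was sequenced as mRNA. All cells grew on gelatin in serum medium with 15% FBS and 10 ng/ml mLIF. The Ssrp1_KO group comes from cells edited at Ssrp1 with Cas9 and a guide RNA, and Ssrp1_Control is its control group. Neither the edited site, the number of knockout clones nor whether these controls went through editing is given in the labels. The Usp7_KD group carried an shRNA against Usp7 from a pSuper puro plasmid and Usp7_Control is its control group. The labels give a transfection of 1000 ng of plasmid and, after 24 h, selection in 1 ug/ml puromycin for 3 days. Whether Usp7_Control cells received the empty plasmid is not clear from the labels. Each of the 4 groups had 2 libraries.

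In mammals, Dnmt3a and Dnmt3b place methyl groups on unmethylated CpG sites, helped by Dnmt3l, which has no catalytic activity of its own. After replication, Uhrf1 binds the hemimethylated sites and brings Dnmt1 to them, and the remodeller Hells, also called Lsh, gives the methylation machinery access to nucleosomal DNA, above all at repeats. The Tet dioxygenases oxidise 5-methylcytosine, and Tdg excises the oxidised bases so that base excision repair can restore cytosine. Ssrp1 is a subunit of FACT, a histone chaperone of transcription and replication, and Usp7 is a deubiquitinase known to bind the Dnmt1 and Uhrf1 proteins, which RNA counts do not measure.

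The promoters of the 3 maintenance genes are shown because these genes shared a sequence feature that the choice of genes did not use. RefSeq promoter windows on GRCm38.p6, from 250 bases before to 50 after a start, were found for all 10 genes, 17 windows in all. They were searched on both strands for 4 spellings of the E2F site, TTTCCCGC, TTTCGCGC, TTTGCCGC and TTTGGCGC. E2F factors are regulators of replication genes. Such a spelling lay in a window of 3 of the 10 genes, Dnmt1, Uhrf1 and Hells. It lay in a window of 704 of the 27025 genes with one, or 2.6%. Every spelling holds a CpG, and the share among windows equally rich in CpG was not computed. The 2.6% is therefore not a matched background. Hells has 1 window, Dnmt1 has 3 and Uhrf1 has 2, and the window with the match is printed for each. The letters run 5′ to 3′ on the strand of the gene, with the matched letters in capitals.
Hells, chr19:38930740-38931039, plus strand: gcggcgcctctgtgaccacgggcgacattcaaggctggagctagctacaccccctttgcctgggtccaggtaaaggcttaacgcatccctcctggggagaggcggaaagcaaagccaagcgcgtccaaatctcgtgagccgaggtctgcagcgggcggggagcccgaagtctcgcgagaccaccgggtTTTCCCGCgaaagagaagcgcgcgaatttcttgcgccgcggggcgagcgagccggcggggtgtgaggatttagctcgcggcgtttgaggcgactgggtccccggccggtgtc
Dnmt1, chr9:20952574-20952873, minus strand: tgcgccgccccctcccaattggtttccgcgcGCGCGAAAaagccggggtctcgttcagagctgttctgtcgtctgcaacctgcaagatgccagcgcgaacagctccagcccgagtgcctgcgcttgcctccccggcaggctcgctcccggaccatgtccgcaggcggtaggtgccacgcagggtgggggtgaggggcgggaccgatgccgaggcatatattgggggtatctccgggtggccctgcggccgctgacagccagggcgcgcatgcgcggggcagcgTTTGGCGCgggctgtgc
Uhrf1, chr17:56304063-56304362, plus strand: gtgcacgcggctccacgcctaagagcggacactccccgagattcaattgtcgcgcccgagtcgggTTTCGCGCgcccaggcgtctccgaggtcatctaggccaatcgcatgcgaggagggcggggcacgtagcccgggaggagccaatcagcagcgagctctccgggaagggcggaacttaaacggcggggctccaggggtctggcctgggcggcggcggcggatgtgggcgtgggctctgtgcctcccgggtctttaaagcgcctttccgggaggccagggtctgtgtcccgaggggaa
The Hells match starts at position -62 from the start that its window is drawn on, and the Uhrf1 match at -185. Dnmt1 has one at -219, read on the other strand, and one at 34. For Dnmt1 and Uhrf1 the printed window is that of the most downstream start, and their other windows held no match. Seen from an upstream start of either gene, these matches lie inside the gene. These 3 windows hold 34, 33 and 33 CpG sites, against a median of 7 over the 32851 windows. Tet2 had the most CpG sites of the 10 genes, with 57, and the 3 windows of Dnmt3l had 3, 4 and 6. A match is a run of letters and not a measured site, and no binding or methylation was measured here.

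Total counts ran between 15879056 and 18361130 per library. Replicates of all 4 groups differed by more than sampling noise, and no label says that they are separate cultures, so the p-values rest on the spread among these libraries alone, which may be technical. Usp7 had 111 and 122 counts scaled to library size (CPM) in Usp7_KD, against 371 and 359 in Usp7_Control, a 3.13-fold fall (edgeR adjusted p = 0.00124). Ssrp1 had 412 and 123 CPM in the libraries labelled Ssrp1_KO, against 462 and 479 in Ssrp1_Control, a log2 change of -0.77 ± 0.45 (SE, edgeR adjusted p = 0.411). The first library labelled knockout thus held nearly the control amount of Ssrp1 RNA. An edited gene can keep its RNA, so this level does not test the allele. Embryonic stem cell markers were all detected, with sums over 15 genes of 9260 to 9870 CPM in Ssrp1_KO, 10100 to 12800 in Ssrp1_Control, 6740 to 6940 in Usp7_KD and 7640 to 9280 in Usp7_Control. Markers of 2-cell-like cells, a rare state in such cultures, summed to 578 to 1500 CPM in Ssrp1_KO, 82.1 to 181 in Ssrp1_Control, 27.7 to 33.5 in Usp7_KD and 4.82 to 5.04 in Usp7_Control. Of 14 such markers, Tcstv1 was at 0 in both Usp7 groups and Tcstv3 in Usp7_Control. Primitive endoderm markers summed to 485 to 601 CPM in Ssrp1_KO, 321 to 325 in Ssrp1_Control, 411 to 425 in Usp7_KD and 321 to 332 in Usp7_Control. Formative markers (118 to 313 CPM over all libraries, with Cer1 at 0) and fibroblast markers (18.5 to 42.6 CPM) overlapped between each group and its control. Mitochondrially encoded genes took 7.31% and 2.81% of counts in Ssrp1_KO, 0.732% and 0.776% in Ssrp1_Control, and 1.67% to 2.44% in the Usp7 libraries. The part of other cell states or of RNA quality in the values below was not tested, and in bulk RNA fewer cells and less RNA per cell cannot be told apart.

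In the libraries labelled Ssrp1_KO, Hells was the only one of the 10 genes whose change passed the test, and it rose 3.96-fold. Its partners in maintenance, Dnmt1 and Uhrf1, had estimates near 0, and none of the de novo or demethylation genes passed. Calls were made by edgeR's quasi-likelihood test, with an adjusted p under 0.05, over 15757 genes, of which 3.71% were called and 3.39% were called higher. The members' median log2 change was -0.08, against 0.03 over all genes tested, with 4 genes above 0 and 6 below. Libraries of Ssrp1_KO and Ssrp1_Control did not overlap for 3 of the 10 genes, where 50.8% of all genes tested did not overlap. Hells lay above, as did 25.6% of all genes, and Dnmt1 and Tet2 lay below, as did 25.3%.

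**Figure D1:**
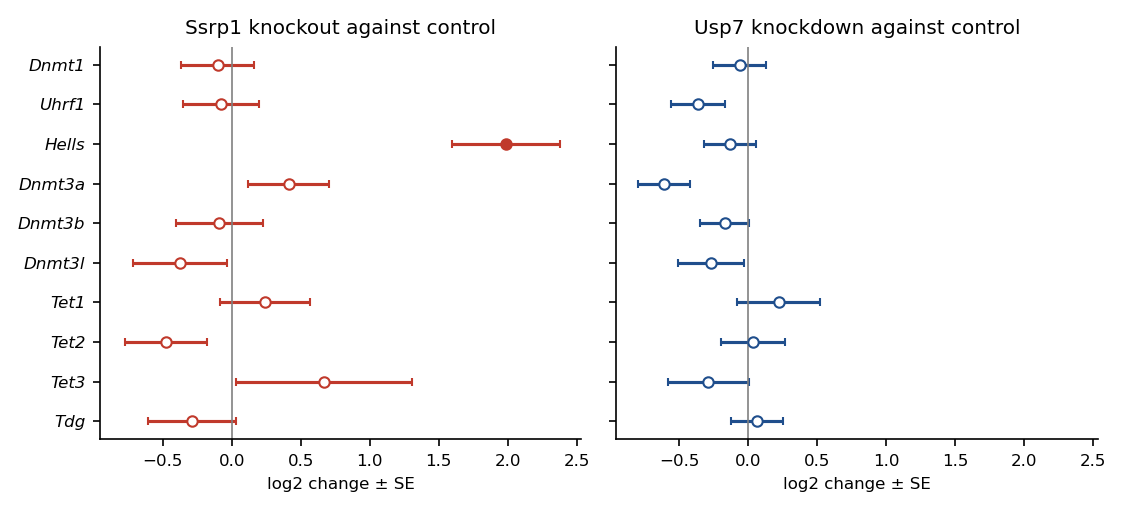
Log2 change of each of the 10 genes with its standard error, for Ssrp1 knockout against control (left) and Usp7 knockdown against control (right). Filled points have an edgeR adjusted p under 0.05. Only Hells in the Ssrp1 comparison is filled, at 1.99, and Dnmt3a has the lowest value in the Usp7 comparison, at -0.61.

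Hells (ENSMUSG00000025001, chromosome 19, 38930915 to 38971051, plus strand, GRCm38) had 511 and 222 CPM in Ssrp1_KO, against 81.6 and 109 CPM in Ssrp1_Control. These rest on 7532 and 3933 reads in Ssrp1_KO and 1137 and 1852 in Ssrp1_Control. Both libraries labelled knockout lay above both controls, and the first, which had kept its Ssrp1 RNA, was the higher. The log2 change was 1.99 ± 0.39 (SE, edgeR adjusted p = 0.0228). It was 1.21 without the first Ssrp1_KO library and 2.46 without the second. Without the first Ssrp1_Control library it was 1.75 and no longer passed, and without the second it was 2.23. Each of these fits leaves 1 library in a group, and the number of all genes called differed widely among them. From the same counts, without scaling, Hells had 1.83 and 0.786 reads per Dnmt1 read in Ssrp1_KO, against 0.274 and 0.336 in Ssrp1_Control. Such a ratio is not a separate test. It also keeps any trend with GC content, as Hells transcripts hold 37.7% G or C and those of Dnmt1 54%. In the Usp7 experiment that ratio lay between 0.599 and 0.661 in all 4 libraries.

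Transcripts poor in G and C, Hells among them, lay higher in Ssrp1_KO than in Ssrp1_Control as a group. The longest Hells transcript is 37.7% G or C, and only 2.25% of the genes tested have a lower share, while the other 9 genes lie between 43.7% (Tet1) and 54% (Dnmt1). In the Ssrp1 comparison the 1573 genes of the lowest decile of GC content had a median log2 change of 0.99, with quartiles of 0.42 and 1.75, and the highest decile had -0.18. Of these 1573 genes, 314, or 20%, had a change at least as high as that of Hells, and the decile held 44.8% of all 534 genes called higher. The lowest decile lay, relative to the mean of the 8 libraries, at a median log2 of 0.57 and 0.09 in Ssrp1_KO, against -0.79 and -0.37 in Ssrp1_Control. With counts corrected for GC content in each library, the log2 change of Hells was 0.81 ± 0.29 (SE) and did not pass (edgeR adjusted p = 0.174). Whether the GC trend is technical was not tested. In the Usp7 comparison the lowest decile had a median of 0.07 and the highest one of -0.10.

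**Figure D2:**
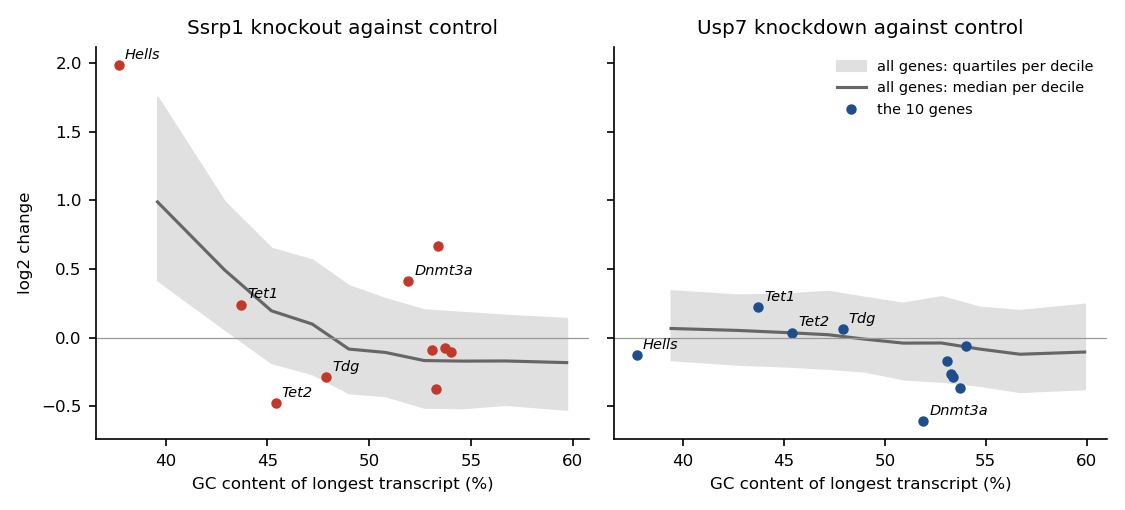
Log2 change against GC content of the longest transcript, for Ssrp1 knockout against control (left) and Usp7 knockdown against control (right). The line and band give the median and quartiles of all genes tested per decile of GC content, each drawn at its median GC, and points are the 10 genes. The lowest decile has a median of 0.99 on the left and 0.07 on the right, and Hells, at 37.7% GC, lies at 1.99 on the left and -0.13 on the right.

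Dnmt1 (ENSMUSG00000004099, chromosome 9, 20907209 to 20959888, minus strand), the maintenance methyltransferase itself, had 279 and 283 CPM in Ssrp1_KO, against 298 and 325 CPM in Ssrp1_Control. The libraries did not overlap, but the log2 change of -0.10 ± 0.26 (SE) was within its error (edgeR adjusted p = 0.887). An interval of 2 SE to each side ran between -0.63 and 0.43. Uhrf1 (ENSMUSG00000001228, chromosome 17, 56303321 to 56323486, plus strand), which recruits Dnmt1, had 329 and 415 CPM in Ssrp1_KO, against 406 and 405 CPM in Ssrp1_Control. Its groups overlapped, and the log2 change was -0.08 ± 0.28 (SE, edgeR adjusted p = 0.922). Both estimates turn to the other side of 0 once GC content is corrected for, at 0.07 for Dnmt1 and 0.09 for Uhrf1.

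Among the de novo genes, Dnmt3a and Dnmt3b, the active enzymes, were both highest in the first Ssrp1_KO library. Dnmt3a had 302 and 201 CPM in Ssrp1_KO, against 175 and 216 CPM in Ssrp1_Control. Dnmt3b (ENSMUSG00000027478, chromosome 2, 153649450 to 153687730, plus strand) had 159 and 89.4 CPM in Ssrp1_KO, against 129 and 144 CPM in Ssrp1_Control. The cofactor Dnmt3l (ENSMUSG00000000730, chromosome 10, 78041947 to 78063622, plus strand) had 413 and 239.6 CPM in Ssrp1_KO, against 549 and 333 CPM in Ssrp1_Control. Groups overlapped for all 3 genes. Log2 changes were 0.41 ± 0.30 for Dnmt3a, -0.09 ± 0.31 for Dnmt3b and -0.38 ± 0.34 for Dnmt3l (SE), with edgeR adjusted p of 0.52, 0.918 and 0.621. Without the first Ssrp1_KO library they were 0.03 for Dnmt3a, -0.62 for Dnmt3b and -0.89 for Dnmt3l, and without the second 0.67, 0.26 and -0.04. Without the first Ssrp1_Control library they were 0.22, -0.21 and -0.03, and without the second 0.59, 0.01 and -0.68. None of the 3 genes passed in any of these fits.

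Of the demethylation genes, Tet2 (ENSMUSG00000040943, chromosome 3, 133463679 to 133545139, minus strand) was lower in both libraries labelled Ssrp1_KO, with 131 and 82.8 CPM against 142 and 165 CPM in Ssrp1_Control. Its log2 change of -0.48 ± 0.30 (SE) did not pass (edgeR adjusted p = 0.442). Tet1 (ENSMUSG00000047146, chromosome 10, 62804570 to 62908996, minus strand), the main Tet enzyme of embryonic stem cells, had 331 and 264 CPM in Ssrp1_KO, against 188 and 330 CPM in Ssrp1_Control. The spread between the Tet1 controls was larger than that between the knockouts, and the log2 change was 0.24 ± 0.33 (SE, edgeR adjusted p = 0.765), or -0.12 with GC content corrected for. Tet3 (ENSMUSG00000034832, chromosome 6, 83362373 to 83459084, minus strand), best known from the zygote, had only 71 and 54 reads in Ssrp1_KO, against 21 and 60 in Ssrp1_Control, and its log2 change of 0.67 ± 0.64 (SE) is the least precise of the 10 (edgeR adjusted p = 0.64). Tdg (ENSMUSG00000034674, chromosome 10, 82629828 to 82650799, plus strand), the glycosylase, had 32.7 and 25.9 CPM in Ssrp1_KO, against 32.6 and 41.3 CPM in Ssrp1_Control. Its groups overlapped by a narrow margin, with a log2 change of -0.29 ± 0.32 (SE, edgeR adjusted p = 0.694). When 1 library was left out, the log2 change ran between -0.90 (without the first Ssrp1_KO library) and -0.19 (without the second) for Tet2. It ran between -0.15 (without the first Ssrp1_Control library) and 0.73 (without the second) for Tet1, and between 0.15 and 1.44 for Tet3 with the same libraries left out. For Tdg it ran between -0.52 (without the first Ssrp1_KO library) and -0.09 (without the second Ssrp1_Control library). None of the 4 passed in any of these fits.

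In Usp7_KD cells, none of the 10 genes passed the test. Dnmt3a, a de novo methyltransferase, came closest, 1.53-fold lower than in Usp7_Control. The libraries of 5 of the 10 genes lay fully below those of Usp7_Control and no gene lay fully above. These 5 were all 3 maintenance genes with Dnmt3a and Dnmt3b. Over the 15915 genes tested, 22.9% lay fully below and 24.7% fully above, 47.6% in all. The 0 calls by edgeR compare with 2.99% of all genes called. Of the 10 genes limma-voom and DESeq2 also called 0, where they called 2.78% and 4.38% of all genes. At an unadjusted p under 0.05 edgeR had 1 of the 10, Dnmt3a, where 16.7% of all genes reached that level. The members' median log2 change was -0.15, against -0.02 over all genes, with 3 genes above 0 and 7 below.

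Dnmt3a (ENSMUSG00000020661, chromosome 12, 3806007 to 3914443, plus strand, GRCm38) had 154 and 134 CPM in Usp7_KD, against 207 and 232 CPM in Usp7_Control. From the same counts, reads per Dnmt1 read were 0.339 and 0.304 in Usp7_KD, against 0.452 and 0.487 in Usp7_Control. This restates the gap without scaling and is not a separate test. The log2 change was -0.61 ± 0.19 (SE, edgeR adjusted p = 0.127). Over the alternatives its log2 change ran between -0.81 and -0.52. It passed under 4 of 12 alternatives, among them fits without the first (-0.70) or second (-0.52) Usp7_Control library, which leave 1 control library. It passed with both GC content and length corrected for (-0.81, edgeR adjusted p = 0.018), where 4.98% of all genes were called. With the replicate number as a block it also passed (-0.61, edgeR adjusted p = 0.0229), where 9.24% of all genes were called. In the joint fit it did not pass (edgeR adjusted p = 0.434). Without the first Usp7_KD library it was -0.71 and without the second -0.52, and it passed in neither.

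**Figure D3:**
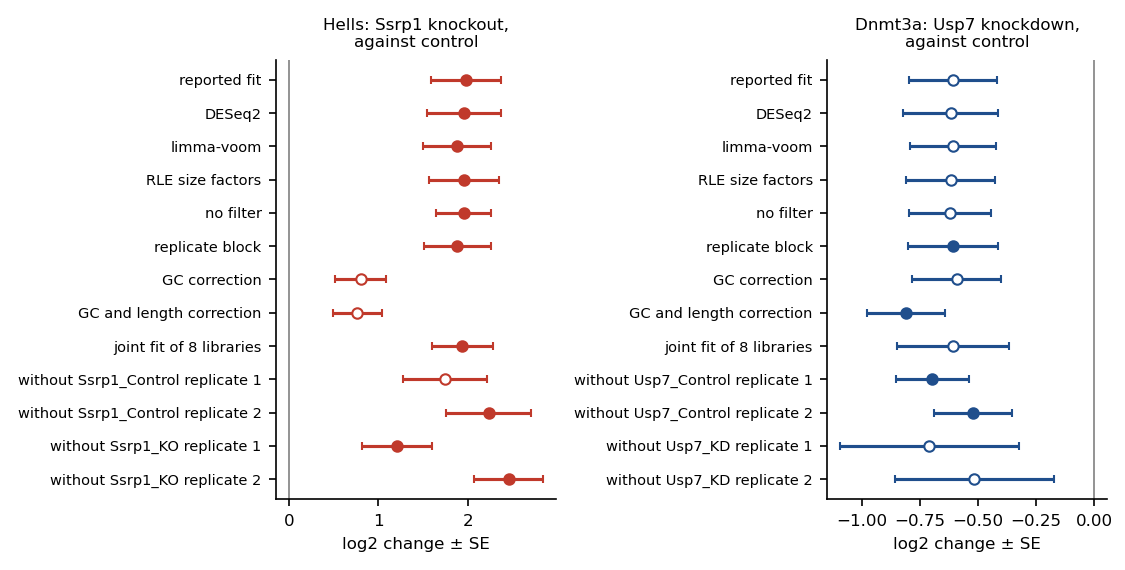
Log2 change with its standard error under each way of processing, for Hells in Ssrp1 knockout against control (left) and Dnmt3a in Usp7 knockdown against control (right). Filled points have an adjusted p under 0.05. Hells lies between 0.77 and 2.46 and is open with either GC correction and without the first control library; Dnmt3a lies between -0.81 and -0.52 and is filled in 4 of 13 fits.

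Dnmt3b was slightly lower in both Usp7_KD libraries, and Dnmt3l had no common direction. Dnmt3b had 82.6 and 92.4 CPM in Usp7_KD, against 101 and 96 CPM in Usp7_Control, a log2 change of -0.17 ± 0.18 (SE, edgeR adjusted p = 0.687). Dnmt3l had 359 and 376 CPM in Usp7_KD, against 547 and 339 CPM in Usp7_Control. The Usp7_Control libraries lay on either side of the Usp7_KD ones, so the sign rests on which control is used. The log2 change of Dnmt3l was -0.27 ± 0.24 (SE, edgeR adjusted p = 0.626). Without the first Usp7_Control library it was 0.11, and without the second -0.57.

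Uhrf1, whose protein is a known partner of Usp7, had 425 and 415 CPM in Usp7_KD, against 538 and 544 CPM in Usp7_Control. The libraries were well apart, but the log2 change of -0.36 ± 0.19 (SE) did not pass (edgeR adjusted p = 0.382). Uhrf1 reads per Dnmt1 read were 0.937 and 0.94 in Usp7_KD, against 1.17 and 1.14 in Usp7_Control. Dnmt1 had 454 and 442 CPM in Usp7_KD, against 458 and 476 CPM in Usp7_Control, a log2 change of -0.06 ± 0.19 (SE, edgeR adjusted p = 0.91). Hells had 291 and 264 CPM in Usp7_KD, against 293 and 314 CPM in Usp7_Control, a log2 change of -0.13 ± 0.19 (SE, edgeR adjusted p = 0.782). For Dnmt1 and Hells the gap between the nearest libraries of the groups was smaller than the spread within either group.

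Of the 10 genes, Tet1 differed most between the Usp7_Control libraries themselves. Tet1 had 634 and 702 CPM in Usp7_KD, against 377 and 765 CPM in Usp7_Control. Its log2 change was 0.22 ± 0.30 (SE, edgeR adjusted p = 0.76). Leaving out the first Usp7_Control library gave -0.21, and leaving out the second gave 0.83, so no direction of Tet1 can be read here. Tet2 had 192 and 184 CPM in Usp7_KD, within the 142 and 224 CPM of Usp7_Control, a log2 change of 0.04 ± 0.23 (SE, edgeR adjusted p = 0.959). Tet3 had 107 and 119 reads in Usp7_KD, against 108 and 151 in Usp7_Control, a log2 change of -0.29 ± 0.29 (SE, edgeR adjusted p = 0.676). Tdg had 44.6 and 41.4 CPM in Usp7_KD, against 38.9 and 43.4 CPM in Usp7_Control, with overlapping groups and a log2 change of 0.06 ± 0.19 (SE, edgeR adjusted p = 0.904).

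To ask whether the Ssrp1 and Usp7 changes differed, the Usp7 change was subtracted from the Ssrp1 change in 1 model of all 8 libraries. None of the 10 genes passed by edgeR, where 1% of 17052 genes did. By limma-voom 0 passed, where 0.651% of all genes did, and by DESeq2 1, Hells, where 3.94% did. At an unadjusted p under 0.05 edgeR had 2 of the 10, Hells and Dnmt3a, against 15.1% of all genes. For Hells the difference in log2 change was 2.07 ± 0.47 (SE, edgeR adjusted p = 0.0692). DESeq2 gave it an adjusted p of 0.00223. For Dnmt3a, 0.41 in the Ssrp1 comparison and -0.61 in the Usp7 comparison, the difference was 0.97 ± 0.34 (SE, edgeR adjusted p = 0.211). For the other 8 genes the adjusted p ran between 0.555 and 0.988. The change of Hells is thus not shown to be particular to the Ssrp1 experiment by the reported test.

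Levels between genes were compared as RPKM, read counts scaled to library size and exon length. Dnmt3l had the highest mean in all 4 groups and Uhrf1 the next, and Tet3 had the lowest. Dnmt3l stood at 109 ± 41.1 RPKM in Ssrp1_KO, 148 ± 51.1 in Ssrp1_Control, 123 ± 4.01 in Usp7_KD and 148 ± 49.3 in Usp7_Control (SD, n = 2 each). Dnmt3l and Uhrf1 overlapped in Ssrp1_KO and Usp7_Control, so their order there is not beyond the spread. Tet3 was at 0.236 ± 0.0748 RPKM in Ssrp1_KO, 0.151 ± 0.0861 in Ssrp1_Control, 0.356 ± 0.0246 in Usp7_KD and 0.434 ± 0.0954 in Usp7_Control (SD, n = 2 each). Within the Tet family Tet1 took 58.8% to 80.1% of the summed RPKM per library and Tet3 0.436% to 1.11%. The share of Tet1 depends on the length used. Scaled to the longest transcript instead, the Ssrp1_Control means were close, at 18.02 for Tet1 and 16.76 for Tet2. With that length Tet1 was at 20.7 and Tet2 at 11.64 in Ssrp1_KO. They were at 39.74 and 19.93 in Usp7_Control and at 46.49 and 20.49 in Usp7_KD. Shares per library were not computed with that length. Within the Dnmt3 family Dnmt3l took 73% to 85%, though its counts may hold reads of the overlapping gene Aire. Dnmt1 was next after Uhrf1 in every group except Ssrp1_KO.

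**Figure D4:**
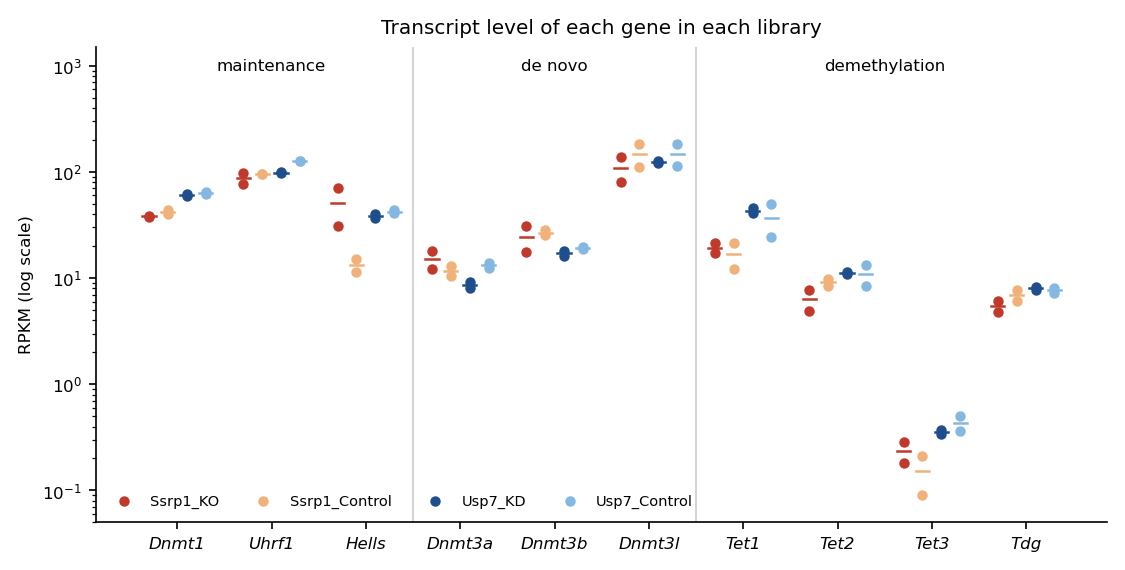
Transcript level in RPKM, on a log scale, of each of the 10 genes in each library; points are single libraries and bars are group means. Dnmt3l has the highest mean in every group and Tet3 the lowest, and for Hells the 2 Ssrp1_Control libraries lie at 11.3 and 15.2 RPKM, below all other libraries.

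Hells moved most in this order. It stood at 50.9 ± 28.4 RPKM in Ssrp1_KO, 13.2 ± 2.72 in Ssrp1_Control, 38.5 ± 2.59 in Usp7_KD and 42.1 ± 2.11 in Usp7_Control (SD, n = 2 each). The Ssrp1_Control libraries were the ones apart from the rest: the 6 other libraries lay between 30.8 and 70.9 RPKM. Hells was 3.18-fold lower in Ssrp1_Control than in Usp7_Control (log2 -1.67 ± 0.34 SE, edgeR adjusted p = 0.0187). It was the only one of the 10 genes called between the control groups, where 7.98% of genes were called and 3.92% were called lower in Ssrp1_Control. In that comparison 9 of the 10 genes were below 0, with a median log2 of -0.33 against -0.04 over all genes. Tet1 was at -1.14 ± 0.35, Tet3 at -1.51 ± 0.47 and Dnmt1 at -0.58 ± 0.20 (SE), with edgeR adjusted p of 0.0692, 0.072 and 0.0911. The lowest GC decile had a median of -0.64 between these control groups. The experiment and any batch cannot be told apart here, and the control groups also enter the comparisons above. Hells was still called between the control groups with GC content alone corrected for, where 8.22% of all genes were called. It was not called with length corrected for as well, where 6.69% were called. Nor was it called without the first Ssrp1_Control library or either Usp7_Control library.

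Lists of the wider methylation pathway, and of S phase and E2F genes, had few changes in Ssrp1_KO, all of them rises. Over all genes tested, 3.39% were called higher and 0.324% lower. Of 24 tested regulators and partners of the Dnmt enzymes 2 rose: Usp9x, a deubiquitinase, 3.56-fold (302 and 270 CPM against 45.5 and 119 in Ssrp1_Control, edgeR adjusted p = 0.0362), and Atrx, a chromatin remodeller, 3.29-fold (225 and 96.7 CPM against 40.7 and 59.8 in Ssrp1_Control, adjusted p = 0.0407). Of 10 Tet partners Cul4b, a ubiquitin ligase scaffold, rose 3.06-fold (edgeR adjusted p = 0.0433). Of 20 methyl donor and 2-oxoglutarate enzymes Idh1, which makes 2-oxoglutarate, the cosubstrate of the Tet enzymes, rose 2.54-fold (edgeR adjusted p = 0.0354). Of 25 S phase and E2F genes Ccne2, cyclin E2, rose 5.57-fold (edgeR adjusted p = 0.0192), while the median log2 change of those 25 genes was -0.14. None of 11 methyl-CpG readers and none of 17 base excision repair genes was called. The transcripts of the 5 genes called hold 36.3% to 43.8% G or C. None of the 5 passed with GC content corrected for (edgeR adjusted p between 0.077 and 0.22), where 2.38% of all genes were called. None passed without the first Ssrp1_Control library, a fit with far fewer calls over all genes. Without the second, Ccne2 was also lost, and without the first Ssrp1_KO library Atrx and Cul4b were lost. Atrx and Cul4b were also lost with limma-voom (adjusted p = 0.0664 and 0.0632), where 2.55% of all genes were called.

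In Usp7_KD the same lists had 4 calls, 1 of them the knockdown target. Over all genes tested, 2.36% were called higher and 0.628% lower. Usp7 itself was the only call among 24 Dnmt regulators and partners. Zbtb38, a zinc finger reader of methylated CpG, rose 1.87-fold (48.3 and 47.3 CPM in Usp7_KD against 23.2 and 27.8 in Usp7_Control, edgeR adjusted p = 0.0364), 1 of 11 readers. Gadd45g, a stress-induced gene listed with the 18 base excision repair genes, rose 3.55-fold (3.22 and 6.18 CPM in Usp7_KD against 1.30 and 1.33 in Usp7_Control, edgeR adjusted p = 0.049). Chaf1b, a subunit of the histone chaperone CAF-1, fell 1.79-fold (52.9 and 43.0 CPM in Usp7_KD against 90.2 and 81.5 in Usp7_Control, edgeR adjusted p = 0.0437), 1 of 25 S phase and E2F genes. None of the 11 Tet partners or the 20 methyl donor and 2-oxoglutarate enzymes was called. The calls of Zbtb38 and Chaf1b were lost without either Usp7_KD library, with adjusted p between 0.193 and 0.887. That of Gadd45g was lost without the second Usp7_KD library (adjusted p = 0.842) or the first Usp7_Control library (0.082), and that of Usp7 without the second Usp7_KD library (0.131). With no filter and in the joint fit Zbtb38 (adjusted p = 0.151 and 0.417), Chaf1b (0.163 and 0.242) and Gadd45g (0.164 and 0.502) were lost, and Gadd45g also with limma-voom (0.0783).

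Of germline genes that DNA methylation is known to keep silent in mouse embryonic tissues, most were called higher in Usp7_KD and fewer in Ssrp1_KO. Over all genes tested, 2.36% were called higher in Usp7_KD and 3.39% in Ssrp1_KO. The list was chosen with earlier results of these data known, and not every gene on it was silent in the controls. In Ssrp1_Control, Tuba3a had 81.2 and 48.3 CPM and Sohlh2 77.1 and 59.0 CPM. In Usp7_KD 15 of 16 tested germline genes rose and none fell, with a median log2 change of 3.44. Taf7l, a germ cell transcription factor, had 37.8 and 57.8 CPM in Usp7_KD, against 0.567 and 0.721 in Usp7_Control (73.4-fold, edgeR adjusted p = 1.18e-05). Tex101 rose 47.9-fold, Tdrd1, a piRNA pathway gene, 27.3-fold and Slc25a31, a mitochondrial carrier of the testis, 23.8-fold. All libraries of Usp7_KD lay above those of Usp7_Control for these 4 genes. Between 10 and 16 of the germline genes were called over the alternatives, with 10 without the second Usp7_KD library. In Ssrp1_KO 4 of 18 germline genes rose, with a median of 1.70. They were Hormad1 (9.27-fold), Dazl (8.46-fold), Taf7l (4.58-fold) and Mael (3.36-fold), with edgeR adjusted p of 0.042, 0.00491, 0.0499 and 0.0255. Hormad1 had 45.1 and 6.33 CPM in Ssrp1_KO, against 2.94 and 2.77 in Ssrp1_Control, so its size rests on the first Ssrp1_KO library. Without that library its log2 change was 1.14 (edgeR adjusted p = 0.217), against 3.21 with it. Hormad1 and Taf7l were also lost with limma-voom (adjusted p = 0.186 and 0.0545) and with GC content corrected for (0.17 and 0.094). Dazl passed under all 12 alternatives. Without either Ssrp1_Control library 1 of the 18 was called, and with GC content and length corrected for also 1. Without the first Ssrp1_KO library 8 were called higher, and without the second 6 were called higher and 1 lower. In the joint fit 8 of the 18 had a lower change in the Ssrp1 than in the Usp7 comparison, by edgeR, where 0.393% of all genes did. The 2 changes start from different control levels. By edgeR 5 of the 18 were called higher in Ssrp1_Control than in Usp7_Control and 0 lower, where 7.98% of all genes were called either way. The median log2 difference of the 18 between the control groups was 0.89, against -0.04 over all genes. DNA methylation was not measured, and the part of the 10 enzymes in the germline values was not tested.

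The genes most like the leading member of each experiment were sought among 10252 genes by the root mean square difference of log2 CPM over the 8 libraries, centred per experiment. For Hells these were Naa50, Zfp825 and Zfp748, at differences of 0.0893, 0.094 and 0.104 (log2). Their transcripts have 37.2%, 39.6% and 40.1% G or C, near the 37.7% of Hells. Their log2 changes in Ssrp1_KO were 1.87, 1.85 and 2.07, and in Usp7_KD -0.05, -0.23 and -0.05. For Dnmt3a they were Ppp2r5b, Lrrc2 and Oxsm, at 0.106, 0.106 and 0.113. These 3 had log2 changes of -0.56, -0.60 and -0.37 in Usp7_KD and 0.47, 0.28 and 0.58 in Ssrp1_KO. Likeness was read from the same libraries as the changes and is a description only.

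Reads of related or overlapping genes could touch few of these values. Pseudogenes of Dnmt3a and Dnmt3l and the antisense genes Dnmt3aos and Dnmt3bos had at most 3 reads in any library, and Dnmt3c, a close copy of Dnmt3b, 2 to 16. The Tdg pseudogene Tdg-ps had 39 to 69 reads, against 455 to 845 for Tdg itself. Aire, which overlaps Dnmt3l on the opposite strand, had 958 to 1995 reads, against 4242 to 9662 for Dnmt3l. Whether counting used strand is not given in the sources used here, so reads of Dnmt3l and Aire may be mixed.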

How the data were processed

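Messenger RNA libraries of 8 samples were prepared with an mRNA kit and random primers, per the labels' protocols. The deposited values are raw read counts per gene. The submitters' processing notes name cutadapt, HISAT2, featureCounts and mm10; the sources used here give neither their versions nor a strand setting. The 10 genes, the lists of related genes and markers, and the tests were chosen with earlier results of these data known.

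Counts of each experiment were tested with edgeR 4.0.16 in R 4.3.3 on its own 4 libraries: filterByExpr by group, TMM factors, a quasi-likelihood F test of group and Benjamini-Hochberg adjustment over all genes tested. SEs were derived from the log2 change and F statistic. The difference between the changes and between the control groups came from a joint fit of 8 libraries. All 10 genes passed the filter in every fit. CPM used TMM factors of the joint fit, and RPKM the exon length from the GENCODE M21 annotation of GRCm38, the assembly called mm10, which also gave symbols (67 identifiers had none) and GC content of the longest transcript. The 92 spike-ins listed had 0 counts. Genes were named by a rule: the 10 genes and both targets; of each list at most the 4 called genes with the largest change; and the 3 genes most like the gene with the smallest p in each experiment, with a mean CPM of at least 5 and no predicted genes. Log2 CPM for this used a prior count of 2.

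The alternatives were DESeq2 1.42.0, limma-voom (limma 3.58.1), RLE factors, no filter, the replicate number as a block, lowess offsets for GC content with or without length (span 0.3), the joint fit and leaving out each library. The steps were tested on simulated data.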

Additional observations from a re-analysis of the deposited data

How the results depend on the processing

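Alternative log2 changes were computed for all 10 genes within each experiment and, for the difference and the control groups, for the genes with an unadjusted p under 0.05. Of these 330 values, 280 kept their direction and their side of the threshold, 24 newly passed, 7 no longer passed and 19 changed direction. The cause was not tested. In the Ssrp1 comparison, GC correction gave log2 changes of 0.069 for Dnmt1, 0.088 for Uhrf1, 0.090 for Dnmt3b and -0.12 for Tet1, and with length as well 0.036, 0.081, 0.087 and -0.14. Without 1 library Dnmt3b ran between -0.62 and 0.26, Uhrf1 between -0.26 and 0.024 and Tet1 between -0.15 and 0.73. In the Usp7 comparison, GC correction gave Tet2 -0.0099, and with length Tet1 -0.066 and Tet2 -0.19. Without 1 library Dnmt3l ran between -0.57 and 0.11, Tet1 between -0.21 and 0.83, Tet2 between -0.26 and 0.41 and Tdg between -0.021 and 0.15.

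Counts of called genes moved more. In the Ssrp1 comparison the 585 calls (534 higher, 51 lower) became 1109 with DESeq2, 1497 with no filter, 1314 in the joint fit, 375 (304 higher, 71 lower) with GC correction, 230 with GC and length correction and 20 (without Ssrp1_Control replicate 1) to 1884 (without Ssrp1_KO replicate 2) without 1 library. The 1 member called became 0 with either correction, where 2.38% (GC) and 1.46% (GC and length) of all genes were called. In the Usp7 comparison the 476 calls became 100 with no filter, 78 in the joint fit, 793 with GC and length correction and 42 (without Usp7_KD replicate 2) to 3770 (without Usp7_Control replicate 2) without 1 library. Of the 10 genes 1, Dnmt3a, was called with that correction, where 4.98% of all genes were called. For the difference between the changes, 171 calls (104 higher, 67 lower) became 672 with DESeq2, 111 with limma-voom, 945 with no filter, 120 (53 higher, 67 lower) with GC correction, 146 (66 higher, 80 lower) with length as well and 1 (without Usp7_KD replicate 2 or Usp7_Control replicate 1) to 1109 (without Ssrp1_KO replicate 2) without 1 library. Hells, 1 member, was called with DESeq2, where 3.94% of all genes were called, and with no filter, where 2.99% were. Between the control groups 1361 calls (692 higher, 669 lower) became 2303 with DESeq2, 2539 with no filter, 1402 (861 higher, 541 lower) with GC correction, 1140 (721 higher, 419 lower) with length as well and 135 (without Usp7_Control replicate 2) to 2815 (without Ssrp1_KO replicate 1) without 1 library. Members called were 3 with DESeq2, where 13.5% of all genes were called, and 3 with no filter, where 8.02% were. With GC and length correction 0 members were called, where 6.69% of all genes were. Of 180 pairs of levels in order, 174 kept it with the length of the longest transcript.

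Same-numbered replicates deviated together with r = 0.177 (Ssrp1) and 0.123 (Usp7) over 17052 genes, but there are 2 pairs per experiment and no label pairs them. With the replicate number as a block the counts of called genes were 988 for Ssrp1, 1471 for Usp7, 388 for the difference and 2633 between the control groups. Of the 10 genes the replicate block gave 1 call for Ssrp1 (Hells) and 1 for Usp7 (Dnmt3a, -0.61, edgeR adjusted p = 0.0229). It gave 1 for the difference (Hells) and 4 between the control groups. The shares of all genes called were 6.27% for Ssrp1, 9.24% for Usp7, 2.28% for the difference and 15.4% between the control groups.

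With 2 libraries a group, the standard errors of the within-experiment changes ran between 0.18 and 0.64 on the log2 scale. Depth limits Tet3, with 21 to 151 reads per library.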
